A study of Homo sapiens with 4 samples.

Results

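The regions described here are ATF3 peaks that lie close together on a chromosome in the human colorectal cancer line SW480. Peaks of 4 ATF3 libraries that shared at least 1 bp were merged into 44826 regions on chromosomes 1 to 22 and X, and 20633 of these held a peak in both libraries from cystine-restricted cells. Regions among the 20633 were linked into a chain under a fixed limit on the gap between their edges, where the widest gap linked was 12497 bp and the narrowest left unlinked was 12508 bp, and chains of at least 4 regions were kept. This left 1773 regions (8.59% of the 20633) in 375 chains, called clusters below. Another 6765 regions stood in pairs or triples and 12095 stood alone.

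The 4 libraries were made by CUT&Tag with an antibody against ATF3, 2 from cells that had spent 24 h in medium restricted in cystine and 2 from cells in full medium for the same time. Cystine is the form in which most cultured cells take up cysteine. The labels call the libraries of a medium separate samples and do not say whether they came from separate cultures, so p-values measure only the spread between these libraries, which may be technical. All 4 libraries are of 1 cell line, a library made without the ATF3 antibody was not analysed here, and peak positions cannot check the labelled cell type.

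ATF3 is a bZIP transcription factor of the ATF/CREB family that binds DNA as a dimer, often with a JUN protein, and is induced by amino acid shortage and other stresses. CUT&Tag tethers a transposase to the protein through its antibody, so that DNA beside the protein is cut and given sequencing adapters. Regulatory elements are often grouped, and linking neighbours over the distance used here is a common way to outline long stretches of enhancers. The clusters rest on ATF3 peaks alone and on no histone mark, so they are not named enhancers. Positions are in hg19, and because no hg19 annotation was used, clusters are named by position and not by gene.

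The number of regions and their presence under cystine restriction come from the rule itself and are a description. Most clusters were small: 227 held 4 regions, 85 held 5, 33 held 6, 14 held 7, 8 held 8, 4 held 9 and 4 held 11. The clusters spanned 1489 to 68297 bp with a median of 22783 bp, and together they covered 8.99 Mb. Within a cluster the regions filled a median of 14.8% of the span, and the gaps between neighbours had a median of 5560 bp. Cluster regions had a median width of 686 bp, between the 665 bp of pairs and triples and the 718 bp of regions that stood alone. Just outside the rule were 625 chains of 3 regions. Their median summit under cystine restriction was 22.3 times the genome background, against 24.4 times in chains of 4, and 53.6% of their regions held a peak in both full-medium libraries, against 57.8% in chains of 4.

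The full-medium libraries took no part in choosing the regions, and most cluster regions were also listed there. A peak was present in both full-medium libraries at 1081 of 1773 cluster regions (61.0%), with a 95% Wilson interval of 58.7 to 63.2% that covers counting error only. Over all 20633 regions this share was 50.1%, and over regions that stood alone it was 48.2%. A further 337 cluster regions (19.0%) held a peak in 1 full-medium library. The remaining 355 (20.02%) held none, against 27.6% over all regions. The pairs and triples lay close to the regions that stood alone, with 50.6% in both full-medium libraries.

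**Figure D1:**
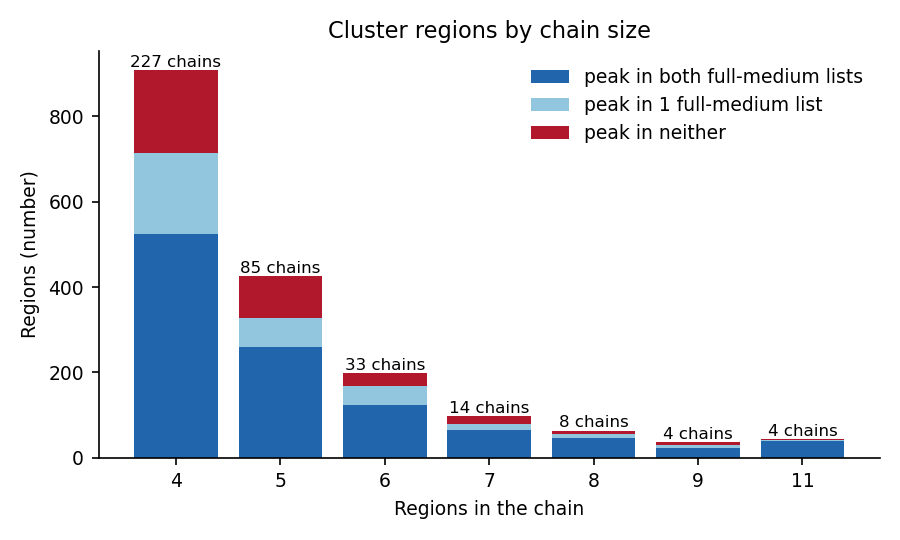
Number of cluster regions by the number of regions in their chain, with each bar divided into regions with a peak in both full-medium libraries, in 1 of them or in neither, and the number of chains above it. The bars run from 908 regions in 227 chains of 4 to 36 in chains of 9 and 44 in chains of 11, and the part in both full-medium libraries is the largest in each bar.

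Presence in full medium was mixed within clusters. In 52 clusters every region held a peak in both full-medium libraries, and in 146 clusters no region lacked a full-medium peak altogether. In 14 clusters no region held a peak in both full-medium libraries. A single cluster, at chr7:44412490-44426601, had no full-medium peak in any of its 4 regions. Its summits stood at 23.9, 20.03, 19.3 and 12.3 times the genome background in cystine-restricted replicate 1 and at 14.8, 20.3, 26.8 and 14.8 times in replicate 2. The medians over all cluster regions were 29.3 and 26.8 times in the same libraries, and none of these summits exceeded them. The cluster with the most regions lacking full-medium peaks, at chr8:103743079-103771379, had none at 5 of its 7 regions, and the other 2 were listed in full-medium replicate 2 alone.

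Summit height and local background were compared next. The summit is the highest stack of tags in a peak, and it is given here as a multiple of the library's genome background, the stack expected from even coverage. The local background is the stack the peak caller expected at that peak from the tags around it. Each library's medians cover only regions where it listed a peak. These were all 1773 cluster regions under cystine restriction, and 1226 and 1273 in full-medium replicates 1 and 2. Of the regions that stood alone they were all 12095, and 6980 and 7427. The media are thus not compared over the same regions here. At cluster regions the median summit was 29.3 and 26.8 times the genome background in cystine-restricted replicates 1 and 2, and 25.3 and 22 times in full-medium replicates 1 and 2. Regions that stood alone had medians of 16.2, 15.7, 15.4 and 12.9 times in the same order, lower than the clusters in each of the 4 libraries. The local background differed more. Its median at cluster regions was 4.67, 4.25, 3.87 and 3.54 times the genome value, against 1.82, 1.70, 1.78 and 1.64 times at regions that stood alone.

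The authors' fold enrichment, which sets the summit against the local background, ran the other way. Its median at cluster regions was 5.35, 5.32, 5.35 and 5.20 in the 4 libraries, below the 6.55, 6.19, 6.07 and 5.82 of regions that stood alone. Neighbouring peaks add tags to the local background by construction, since it counts tags over up to 10 kb. At the median local background a peak needed a summit of 14 to 16 tags to be listed at cluster regions, against 8 or 9 tags at regions that stood alone.

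**Figure D2:**
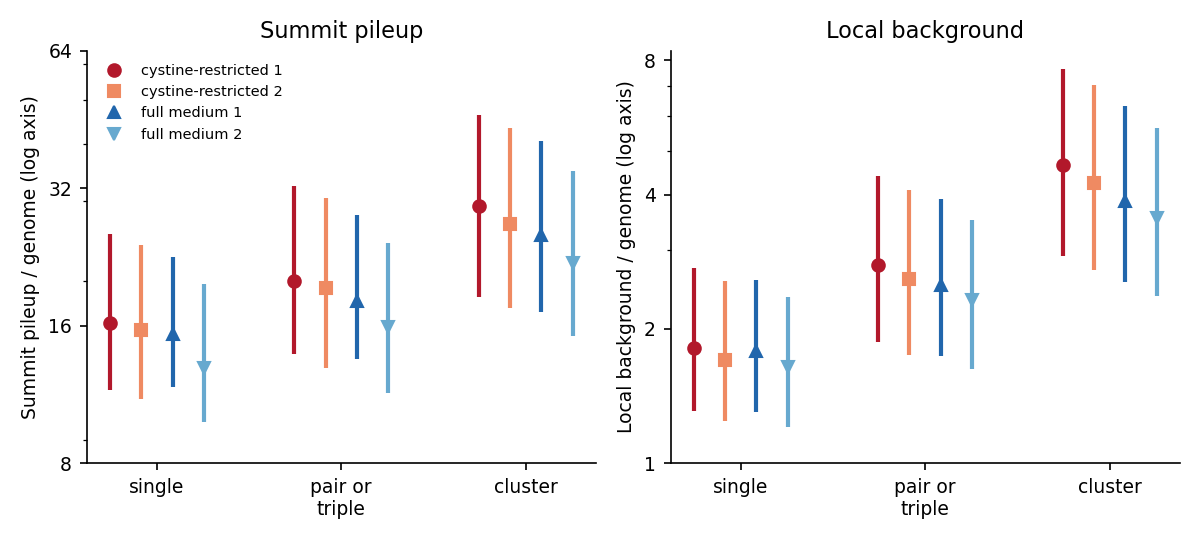
Median summit (left) and median local background (right) over the genome background, on log axes, in each of the 4 libraries for regions that stood alone (single), pairs and triples, and cluster regions, with lines from the lower to the upper quartile. Each library's values cover only the regions where it listed a peak. In each library the medians rise from single regions to clusters, from 16.2 to 29.3 times for the summit in cystine-restricted replicate 1.

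At summits of 16 to 48 times the genome background under cystine restriction, a smaller share of cluster regions than of regions that stood alone was found in full medium. Among regions with a mean cystine-restricted summit of 16 to 24 times the genome background, 171 of 433 cluster regions (39.5%, 95% Wilson interval 35.0 to 44.2%) held a peak in both full-medium libraries. Of the regions that stood alone, 1634 of 2667 (61.3%, 59.4 to 63.1%) did. Between 24 and 32 times the shares were 61.1% and 81.7%, and between 32 and 48 times they were 80.3% and 94.4%. Between 48 and 64 times they were 90.6% (85.3 to 94.2%) and 96.4% (94.1 to 97.8%), in the same order with intervals that just overlapped. Above 64 times they came close, at 97.8% and 99.8%. Below 16 times the order was not stable, at 16.5% and 13.7% for 8 to 12 times and 31.9% and 33.8% for 12 to 16 times. The pairs and triples lay between from 16 to 48 times, at 49.6% for 16 to 24 times, and below the clusters from 8 to 16 times, at 12.9% for 8 to 12 times and 23.7% for 12 to 16 times. Between 16 and 24 times the median local background in cystine-restricted replicate 1 was 3.38 times the genome value at cluster regions and 2.09 times at regions that stood alone. Its part in the lower share was not tested.

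**Figure D3:**
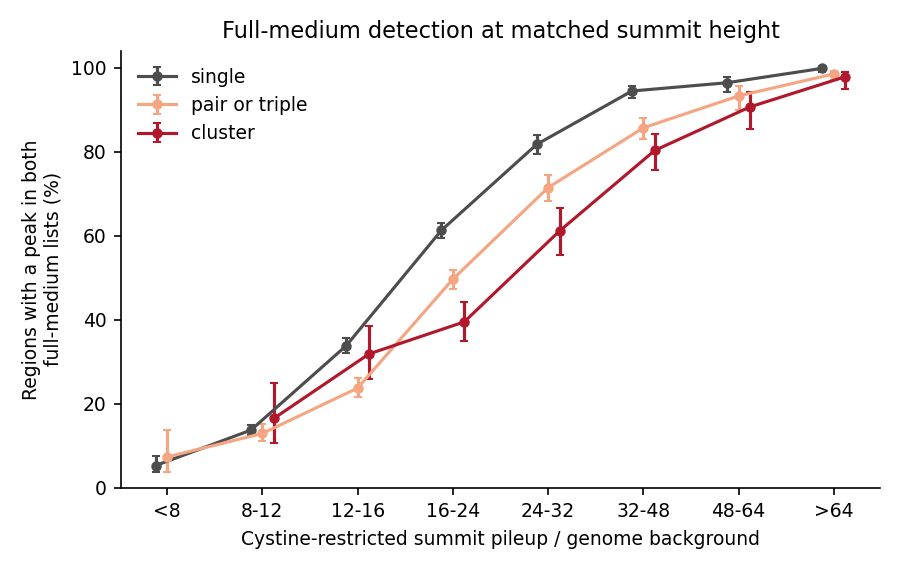
Percentage of regions with a peak in both full-medium libraries against their mean summit under cystine restriction (times genome background), for regions that stood alone (single), pairs and triples, and cluster regions, with 95% Wilson intervals. From 16 to 48 times the cluster points lie below the points of regions that stood alone, at 39.5% against 61.3% for 16 to 24 times.

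The height of a peak under both media could be compared at the 1081 cluster regions listed in all 4 libraries. Their median summit was 38.5 and 36.0 times the genome background in the cystine-restricted libraries, and 28.02 and 24.3 times in the full-medium libraries. Both cystine-restricted libraries lay above both full-medium libraries, with means of 37.3 ± 1.80 and 26.2 ± 2.65 (SD, n = 2). A two-sided exact permutation test over the 4 libraries gave p = 0.33, the smallest value that 2 against 2 allows. The median of the regions' own log2 changes, cystine-restricted over full medium, was 0.51 with quartiles of 0.26 and 0.74, and the changes ran from -0.99 to 2.05. Over all 10331 regions listed in 4 libraries the median was 0.53, so cluster regions did not stand above the rest.

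Region by region, 971 of 1081 cluster regions (89.8%) had a log2 change above 0, against 92% of all regions. Both cystine-restricted summits exceeded both full-medium summits at 803 (74.3%, against 72.8% of all), and both lay below at 58 (5.37%, against 2.38% of all). With limma fitted over all 10331 regions and Benjamini-Hochberg adjusted p under 0.05, 365 cluster regions (33.8%) were higher under cystine restriction, against 37.2% of all regions. The number of higher calls depended on which libraries were used. Without cystine-restricted replicate 1 or 2 the median log2 change at the cluster regions of the libraries left was 0.46 and 0.56. Without full-medium replicate 1 or 2 it was 0.59 and 0.39. In the limma fit of all 4 libraries 5 cluster regions (0.463%) were lower, against 0.155% of all regions. The share of higher calls was near the background, and the shares of lower regions were above it. This excess lay in 8 clusters described below, which were picked by their lower values. At the other 1030 cluster regions both cystine-restricted summits lay below both full-medium summits at 20 (1.94%), and none was called lower.

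These directions depended on the scale. Scaling each summit by its own local background left a median log2 change of 0.09 at cluster regions, against 0.16 over all regions. In that limma fit no region of any kind passed the threshold. At an unadjusted p under 0.05, 85 of 1081 cluster regions were higher and 10 lower, against 1481 and 90 of all 10331 regions. Centring each library on its median over all 10331 regions took away a shift of 0.57 and turned the cluster median to -0.062, against -0.04 over all regions. After centring, 8 cluster regions were higher in limma (1.71% of all regions were) and 28 were lower (1.2% of all regions were). Of these 28, 24 lay in 8 clusters described below. The local background itself was higher under cystine restriction, by a median log2 of 0.40 at cluster regions and 0.34 at regions that stood alone, and its part in the change of summits was not tested.

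Within most clusters the strongest region was the same in any 2 libraries. Ranked by their cystine-restricted summit, which fixes the fall over the ranks, the strongest regions had a median of 54.5 times the genome background, the next 34.0 times, the third 25.2 times and the fourth 18.4 times. Of the 375 strongest regions 336 (89.6%) held a peak in both full-medium libraries, and this fell to 272 (72.5%), 206 (54.9%) and 144 (38.4%) in the next ranks. Among 365 clusters with a peak in each library, the same region was the strongest in both cystine-restricted libraries in 294 (80.6%). In both full-medium libraries it was the same in 298 (81.6%). Between a library of each medium the strongest region was the same in 278 to 284 clusters, and it was the same in all 4 libraries in 230 (63.0%). The strongest summit exceeded the next by a median of 1.44 times in each library. Only 335 and 347 clusters had a next region listed in full-medium replicates 1 and 2. Where none was listed, the sole region counted as the strongest, so part of the agreement depends on which regions were listed. Regions at the ends of a cluster and those inside it were found in both full-medium libraries at similar shares, 61.3% of 750 and 60.7% of 1023.

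Neighbouring cluster regions changed alike. Across 561 pairs of neighbours listed in all 4 libraries, Pearson's r between their log2 changes was 0.54. For neighbours in pairs and triples it was 0.37 over 1057 pairs, and for adjacent regions left unlinked it was 0.16 over 3835 pairs. These values describe regions of the same 4 libraries that partly share the tags around them, and they carry no test. The cluster value also includes 8 clusters described below that were picked by their lower values. Their 51 regions had a median log2 change of -0.35, against 0.53 at the other 1030 cluster regions. Pearson's r without them was not computed, so the height of 0.54 above 0.37 may rest on them. Of 309 clusters with at least 2 regions listed in all 4 libraries, the median change was above 0 in 292 and below 0 in 17. Every such region was above 0 in 260 clusters and below 0 in 8.

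Single clusters show how the regions were arranged. The clusters were taken by number of regions, by height in full medium and by number of regions without a full-medium peak, and within them the called regions were picked after their values were seen. The cluster at chr20:342879-401199 had 9 regions over 58 kb, with 8 listed in both full-medium libraries. Of those 8, 6 were higher under cystine restriction in limma. The tallest, at chr20:353415-354679, stood at 173 and 151 times the genome background under cystine restriction and at 57.8 and 44.0 times in full medium, a log2 change of 1.68 ± 0.24 (SE, limma adjusted p = 0.00086). Both cystine-restricted values lay far above both full-medium values. Its neighbour at chr20:352117-353124 gave 91.7, 96.9, 38.0 and 21.2 times in the same order, with a log2 change of 1.73 ± 0.28 (limma adjusted p = 0.0014). The region at chr20:371718-372190, between called regions, was level: it stood at 12.3, 13.8, 13.6 and 11.4 times, a log2 change of 0.07 (limma adjusted p = 0.81). The 1 region without any full-medium peak, at chr20:380942-381313, stood at 27.7 and 31.4 times. After centring, 3 of the 6 calls in this cluster still passed, and against the local background none did, with a median log2 change of 0.04. Its median local background was 9.49 and 9.24 times the genome value under cystine restriction and 4.62 and 4.09 times in full medium.

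The cluster at chr22:30592009-30654105 was among those with the most regions, 11 over 62097 bp. Its leading regions, at chr22:30592009-30593412 and chr22:30601281-30603311, reached 462 and 460 times and 473 and 459 times the genome background under cystine restriction. In full medium they reached 370 and 316 times and 363 and 297 times, lower in each library. Neither passed the threshold (limma adjusted p = 0.14 and 0.094). The called regions of this cluster were smaller: chr22:30620027-30620760 stood at 66.3, 70.1, 37.1 and 34.1 times, a log2 change of 0.94 ± 0.23 (limma adjusted p = 0.0092). The region at chr22:30643051-30643451 had no full-medium peak and stood at 32.4 and 22.1 times. After centring no region of this cluster passed.

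The longest cluster, chr10:21561978-21630274, held 8 low regions over 68297 bp, of which 7 were listed in both full-medium libraries and 4 were called higher. At chr10:21574226-21575122 the summit was 28.5 and 35.1 times the genome background under cystine restriction and 11.8 and 12.9 times in full medium, a log2 change of 1.36 (limma adjusted p = 0.0019). The cluster at chr11:65238966-65276035 was uneven. At chr11:65239318-65240131 the summit was 55.5, 60.9, 30.7 and 26.6 times, a log2 change of 1.03 (limma adjusted p = 0.0068). The tallest region of the same cluster, chr11:65254918-65256467, stood at 146, 148, 166 and 127 times, and its groups overlapped (log2 change 0.01, limma adjusted p = 0.96). At chr20:30283809-30328711, 4 of 9 regions were listed in both full-medium libraries, and 3 of the 4 were called higher. Its first region, chr20:30283809-30284664, gave 117, 107, 58.7 and 56.9 times (log2 change 0.95, limma adjusted p = 0.0085). After centring no region of these 3 clusters passed.

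Another 2 clusters were named for their number of regions. At chr8:128896416-128962625, 5 of 9 regions were listed in all 4 libraries and 2 were called higher. Its tallest region, chr8:128910749-128912405, stood at 274 and 262 times the genome background under cystine restriction and at 156 and 118 times in full medium, with no overlap (log2 change 0.98 ± 0.24, limma adjusted p = 0.0095). At chr7:73206689-73266338, 7 of 8 regions were listed in all 4 libraries and 1 was called higher: chr7:73244469-73245465 gave 133, 119, 76.8 and 69.04 times (log2 change 0.79, limma adjusted p = 0.019). The cluster at chr19:13957529-13973293, among the tallest in full medium, had 4 regions in all 4 libraries with a median log2 change of 0.36, and none was called. At its last region, chr19:13972376-13973293, the groups overlapped at 26.2, 22.1, 28.02 and 20.5 times. After centring no region of these clusters passed.

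Beside those on chromosomes 7 and 8 given above, 3 clusters were named for their regions without full-medium peaks. At chr1:21650593-21683019, 4 of 5 regions had no full-medium peak and stood between 9.25 and 21.2 times the genome background. The first region, chr1:21650593-21651466, was listed in all 4 libraries at 33.1, 38.8, 27.1 and 12.9 times (log2 change 0.94 ± 0.31, limma adjusted p = 0.031). At chr2:27904641-27913207, 3 of 4 regions had none, and the first gave 23.1, 16.6, 17.2 and 13.7 times with overlapping groups (log2 change 0.36, limma adjusted p = 0.25). The cluster at chr10:74052028-74091447 had 4 of 8 regions without a full-medium peak and a taller region at chr10:74080467-74081558. That region stood at 72.4, 71.96, 45.2 and 27.3 times (log2 change 1.04 ± 0.26, limma adjusted p = 0.011), and after centring none of these clusters held a call.

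**Figure D4:**
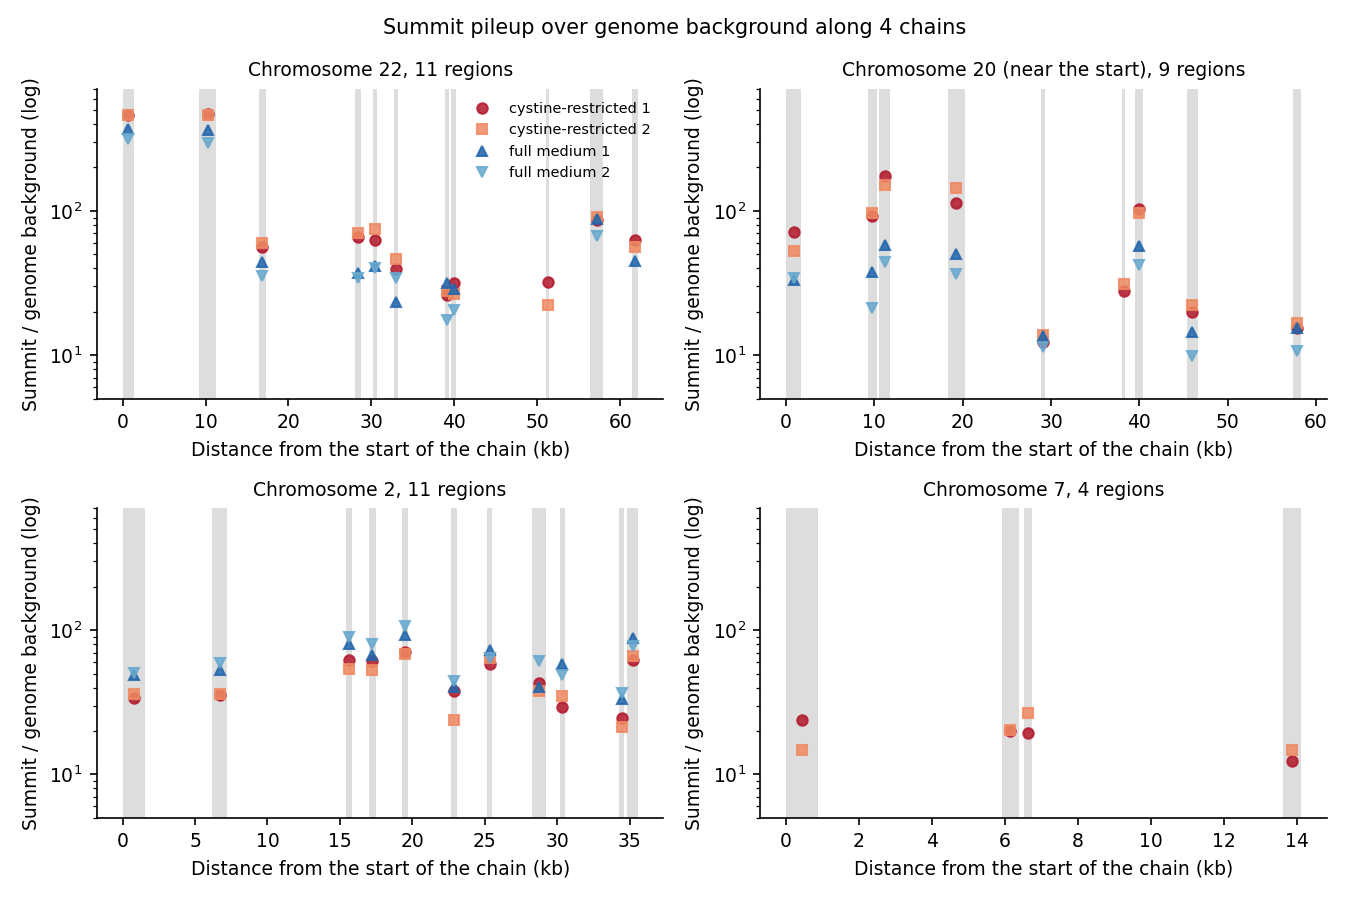
Summit over the genome background (log axis) at each region of 4 clusters, against the distance in kb from the start of the cluster, with a point for each of the 4 libraries that listed a peak and grey bands for the regions. On this scale the cystine-restricted points stand above the full-medium points at the tall regions of the chromosome 20 cluster, lie mostly below them in the chromosome 2 cluster described next, and are the only points in the chromosome 7 cluster.

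In 8 clusters every region listed in all 4 libraries was lower under cystine restriction on the genome scale. They were picked by this outcome, so the values of their change describe them and support nothing. They held 53 regions, 51 of them in all 4 libraries, with a median log2 change of -0.35. Both cystine-restricted summits lay below both full-medium summits at 38 of the 51. All 5 lower limma calls among cluster regions were in these clusters. The 8 clusters are at chr2:92290098-92325643, chr7:102232176-102251131, chr10:42384810-42408443, chr10:42527891-42539975, chr16:46385899-46433025, chr17:22246978-22261755, chr18:18515672-18520342 and chr19:27731864-27738707. Repeat content and how reads that match several places were placed were not analysed here. This holds for these and all other clusters, including those on chromosome 4 given below.

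The local background was high and lower under cystine restriction in 7 of these clusters. The exception, chr7:102232176-102251131, had a local background of 1.32, 1.20, 1.55 and 1.12 times the genome value, with a median log2 change of 0.032 in background and -0.032 in summit. Over the 51 regions of all 8 clusters the median local background was 9.57 and 9.09 times the genome value under cystine restriction. In full medium it was 13.1 and 13.97 times, and the median log2 change of the local background was -0.45. Scaled by the local background, the medians of 6 of these clusters turned to values between 0.03 and 0.17, and those at chr7:102232176-102251131 and chr10:42384810-42408443 were -0.09 and -0.01. The cluster at chr10:42384810-42408443 had 8 regions, all listed in the 4 libraries. Its first region, chr10:42384810-42385774, stood at 284 and 271 times the genome background under cystine restriction and at 386 and 441 times in full medium, with no overlap (log2 change -0.57, limma adjusted p = 0.062). Its last region, chr10:42408101-42408443, stood at 21.6, 15.7, 32.5 and 41.0 times and was called lower, with a log2 change of -0.99 ± 0.25 (limma adjusted p = 0.011). At chr2:92290098-92325643, with 11 regions, chr2:92320288-92320605 gave 29.3, 35.1, 57.8 and 48.6 times (log2 change -0.73, limma adjusted p = 0.030).

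Clusters of high local background were examined as a whole. In 17 clusters the median local background was at least 10 times the genome value in each library, and they held 88 regions. The median log2 change at their 75 regions listed in all 4 libraries was 0.12, against 0.52 at the other cluster regions. The cluster median was below 0 in 5 of the 17 and in 12 of the 292 others. Without these 17 clusters, 352 of 1006 cluster regions were higher and 3 lower in limma, against 37.2% and 0.155% of all regions in the same fit. In both full-medium libraries 59.7% of 1685 were found, against 50.1% over all regions.

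**Figure D5:**
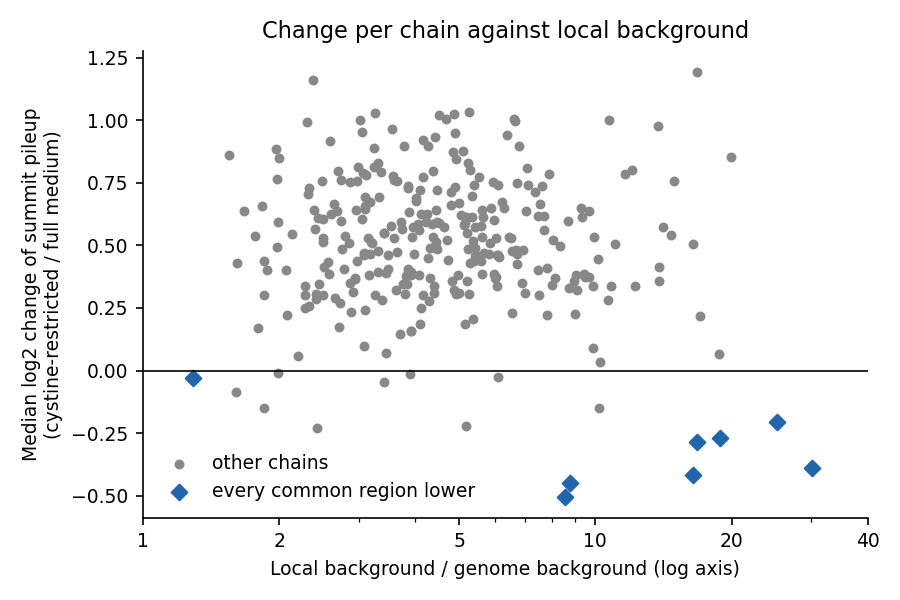
Median log2 change of the summit over the genome background, cystine-restricted over full medium, for each cluster with at least 2 regions listed in all 4 libraries, against its local background (times genome background, log axis). Most clusters lie above 0 on this scale, and of the 8 with every such region below 0 (blue), 7 lie to the right, at high local background.

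The same rule applied to the full-medium libraries gave a smaller set that lay mostly inside the clusters. Of 11121 regions with a peak in both full-medium libraries, 610 (5.49%) stood in 129 chains of at least 4. These chains shared 525 regions with the clusters, which is 86.1% of the full-medium chain regions and 29.6% of the cluster regions. Of the 11121 regions, 10331 also held a peak in both cystine-restricted libraries, as did 563 of the 610. A full-medium chain made only of such regions lies in a cluster by the rule, so much of this overlap was set in advance. Of the 129 full-medium chains 117 (90.7%) overlapped a cluster, and 117 of the 375 clusters (31.2%) overlapped a full-medium chain. The 12 chains that overlapped none held 4 regions each, while the largest full-medium chains held 12. Choosing members on the full-medium libraries gave a median log2 change of 0.47 at the 563 such regions listed in all 4 libraries. Most of these are cluster regions themselves, and the median over all regions was 0.53, so this value is no separate check.

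Within the cluster spans the lists held 2003 and 1986 peaks under cystine restriction and 1438 and 1466 in full medium. The ratio of the means was 1.37, against 1.73 for the whole lists. The spans were chosen on the cystine-restricted lists, so this ratio is a description and carries no test.

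Clusters were spread unevenly over the chromosomes. On chromosome 20, 123 of 888 regions (13.9%, 95% Wilson interval 11.7 to 16.3%) stood in clusters, on chromosome 17, 172 of 1287 (13.4%) and on chromosome 19, 142 of 1117 (12.7%). The lowest share was on chromosome 13, with 8 of 489 (1.64%, 0.831 to 3.20%), followed by chromosome 4 with 21 of 592 (3.55%). The shares were not corrected for the number of regions per length of chromosome. The median log2 change at cluster regions was -0.15 on chromosome 4, where 2 neighbouring clusters hold 16 of the 21 regions. The larger, chr4:49093900-49123181, had 11 regions and a median log2 change of -0.22, and the other, chr4:49139085-49156693, had 5 and a median of -0.15. Its tallest region, chr4:49151278-49151923, stood at 545 and 485 times the genome background under cystine restriction and at 586 and 544 times in full medium, with overlapping groups (limma adjusted p = 0.63). No region of either was called on the genome scale, 3 were called lower after centring, and against the local background the medians were -0.10 and 0.03.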

How the data were processed

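ATF3 binding was measured by CUT&Tag in 4 SW480 libraries, 2 per medium. The deposited files are 4 peak lists, 1 per library. The genome build was hg19 and the tools were MACS2 2.2.7.1, BWA 0.7.17, fastp 0.19.7 and bcl2fastq 2.17, per the submitters' processing notes. The sources used here do not give the peak-calling options. Per the file layout the authors' deposited values are a score, a fold enrichment (a ratio), a −log10 p and a −log10 q for each peak, with every q at or below 0.05. The files hold no read counts. Lists held 33838, 29607, 17447 and 19132 peaks on chromosomes 1 to 22 and X.

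The fold and −log10 p together fixed a whole-number summit pileup and a local background for 100% of peaks (within 0.1% of the −log10 p). The local backgrounds were multiples of 0.015, which is what 150 bp tags over 10 kb give. The genome backgrounds, proportional to depth, were 1.30, 1.08, 1.11 and 1.32 tags, equal to 86.5, 72.3, 73.8 and 87.9 tags per 10 kb. The log2 of pileup over genome background was fitted with limma 3.58.1 over all regions listed in 4 libraries, with Benjamini-Hochberg adjustment and no covariates. Single values had exact permutation tests. The limma step was tested on simulated data, and bedtools 2.31.1 gave the same regions and chains. Scripts used Python 3.11.15 and R 4.3.3.

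Members and lists were chosen with earlier results of these data known. Named clusters are the 10 with the most regions, the 5 tallest in full medium and the 5 with the most regions lacking full-medium peaks. The plan was to name in each the regions of highest and lowest full-medium summit. Not all regions named follow this plan, and called regions were picked after their values were seen. Alternatives covered peak strength, overlap, chain distance and size, scaling, left-out libraries and pairing. Gene lists, distance to transcription starts, motifs and sequences were not analysed here, because the reference tables at hand are of another build.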

Additional observations from a re-analysis of the deposited data

Results flagged for a closer look

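Peaks outside chromosomes 1 to 22 and X entered no comparison above. On chromosome Y and the contigs without a fixed place, the same rule put 138 of 229 regions of the cystine-restricted libraries (60.3%) into 12 chains, and this signal in positions outside the main measurement is what marked it for a closer look. The full-medium libraries gave 126 of 195 regions (64.6%) in 10 chains. On chromosomes 1 to 22 and X the shares were 8.59% and 5.49%.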

How the results depend on the processing

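The median log2 change at cluster regions stayed above 0 under 15 of 16 alternatives. Where the scale was changed, it was 0.09 against the local background and -0.062 after centring on the median of all regions. The other alternatives kept the genome-background scale, on which the median over all regions was 0.53, so they could not check the dependence on scale. The alternatives to the rule changed the number of cluster regions by construction: 967 with −log10 q of at least 5, 704 with equal numbers of top peaks from each library, 996 when peaks had to cover 50% of a region, 237 at 5 kb, 4836 at 25 kb, 3648 in chains of 3 or more and 440 in chains of 6 or more. The percentage found in both full-medium libraries was 75.6 with equal numbers of top peaks, 50.3 with 50% cover, 63.7 at 5 kb, 57.9 at 25 kb, 57.2 and 67.5 in chains of 3 and 6 or more, and 58.3 without the tallest 1% of regions. Higher limma calls numbered 228 of 532 with equal top peaks, 178 of 501 with 50% cover, 37 of 151 at 5 kb and 1016 of 2802 at 25 kb. In chains of 3 and 6 or more they were 755 of 2086 and 99 of 297. After centring they were 8 of 1081, and against the local background 0. Lower limma calls numbered 9 of 604 with −log10 q of at least 5, 10 of 501 with 50% cover, 3 of 151 at 5 kb and 8 of 2802 at 25 kb. Lower calls after centring were 28 of 1081, and against the local background 0. An alternative added after seeing the data, without the clusters of high local background, gave 3 of 1006. For changes of chain distance and size, and without the clusters of high local background, the limma fit was that of all 10331 regions. In that fit 37.2% of all regions were higher and 0.155% lower. For peak strength, equal top peaks and 50% cover, no shares over all regions were set beside the counts, so these do not show whether clusters differed. The percentage of full-medium chain regions inside clusters was 61.0 with equal top peaks, 81.7 with 50% cover, 90.6 at 5 kb, 89.3 at 25 kb, 82.6 in chains of 6 or more and 75.3 without the clusters of high local background.

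Leaving out 1 library at a time gave 1800 to 5408 cluster regions, 39.7 to 71.8% found in full medium, 195 to 469 higher limma calls, 0 to 7 lower limma calls and 58.4 to 95.5% of full-medium chain regions inside clusters. Leaving out cystine-restricted replicate 1 or 2 raised the cluster regions to 3681 and 5408, because presence in both libraries was then not required. The median log2 change was 0.46 without cystine-restricted replicate 1, 0.56 without replicate 2, 0.59 without full-medium replicate 1 and 0.39 without replicate 2. Limma calls of these fits depended on the library left out. They rest on 1 library in a medium, so they are not given. The ratio of peaks within the spans lay between 1.09 and 1.82 under all 13 alternatives run for it.

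The labels do not say whether the replicate numbers pair the samples. Deviations of same-numbered libraries had a correlation of 0.01, which does not settle the pairing. With a replicate block the log2 change was 0.51, with 350 higher and 5 lower limma calls and a peak ratio of 1.37. The share near transcription starts and the AP-1 motif share were not run. The depth limits what is listed: a median local background at cluster regions of 285.5 to 404 tags per 10 kb required summits of 14 to 16 tags, against 8 or 9 at regions that stood alone, so a region without a full-medium peak is not shown to be unbound.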
